A study of Mus musculus with 9 samples.

Results

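The insulin-like growth factor (IGF) system was followed in 3T3-L1 cells through 10 of its genes: the ligands Igf1 and Igf2, the receptors Igf1r and Igf2r, and the binding proteins Igfbp2, Igfbp3, Igfbp4, Igfbp5, Igfbp6 and Igfbp7. The genes were chosen by name and matched to the gene names in the deposited tables, where all 10 were found among 54532 genes. 3T3-L1 is a mouse preadipocyte line, labelled fibroblast, that turns into fat-storing adipocytes in hormonal medium. All cells were first held at confluence for 3 days in high glucose DMEM with calf serum. Undifferentiated cells were the control without adipogenic induction, Differentiated cells were given an adipogenic medium, which combined insulin (10 μg/mL) with dexamethasone (1 μM), rosiglitazone (1 μM) and 3-isobutyl-1-methylxanthine (0.5 mM), and Lysfree cells were given the same medium without added lysine. Poly A RNA was sequenced from n = 3 libraries per group, 9 in all. The comparison of Differentiated with Undifferentiated cells asks what the adipogenic medium changes, and that of Lysfree with Differentiated cells asks what changes when lysine is left out. Lysfree and Undifferentiated cells differ in the adipogenic medium as well as in lysine. By the methods of the study, this medium was made with another DMEM and with fetal bovine serum. The harvest day of Undifferentiated cells and their medium after confluence are not given. Effects of the agents, base medium, serum and time therefore cannot be told apart in comparisons with Undifferentiated cells.

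Total counts were between 15880144 and 21806693 per library, and 3 counts, taken as the detection floor, corresponded to 0.138 to 0.189 CPM (counts scaled to library size). Of 7 adipocyte markers, 6 were higher in Differentiated than in Undifferentiated cells and 7 were lower in Lysfree than in Differentiated cells, and their summed level was 191 to 300 FPKM (fragments divided by gene length and library size) in Undifferentiated, 6038 to 6327 in Differentiated and 61.2 to 68.2 in Lysfree libraries. The 8 preadipocyte and fibroblast markers summed to 2396 to 2600 FPKM in Undifferentiated, 512 to 521 in Differentiated and 934 to 960 in Lysfree libraries. They did not move alike. By the call defined below, 5 were higher and 0 lower in Lysfree vs Differentiated cells. In Lysfree vs Undifferentiated cells 1 was higher and 5 were lower. Of all genes tested, 18.7% and 14.3% were called in these comparisons. In the same order of groups, Col1a1 averaged 1887, 362 and 327 FPKM, and Ly6a 94.1, 71.3 and 390. Of the markers of other cell types, Adgre1 (macrophage), Myod1 (muscle), Alb and Ttr (hepatocyte) were at 0 in all 9 libraries, and Ptprc (leukocyte) had 1 count at most. Others were expressed. In Undifferentiated, Differentiated and Lysfree cells, Lyz2 averaged 13.3, 0.699 and 3.49 FPKM, and Cd68 1.65, 4.12 and 4.40 (macrophage). Des (muscle) averaged 2.60, 3.32 and 1.07. The summed level was 3.91 to 16.2 FPKM for 5 macrophage markers, at most 0.630 for 5 endothelial, 4.27 for 5 muscle and 0.138 for 5 hepatocyte markers. The endothelial Vwf and Tek were higher in Lysfree than in Differentiated cells (log2 fold changes 4.88 and 3.16), at 0.325 and 0.156 FPKM on average in Lysfree cells. Adipocyte and preadipocyte marker levels moved with the groups, and their part in the results on the IGF genes was not tested. Library Lysfree 1 stood apart from the other Lysfree libraries, with a chi-square per degree of freedom of 43.3 and 44.4 against Lysfree 2 and 3, which differed from each other by 2.76. Results that rest on this library are given with and without it.

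IGF1 and IGF2 are small secreted proteins related to insulin. Both act through the receptor tyrosine kinase encoded by Igf1r, while the receptor encoded by Igf2r, also the large mannose 6-phosphate receptor, takes up IGF2 for breakdown in lysosomes and carries lysosomal enzymes. The IGF binding proteins hold the ligands outside the cell and set how much of them reaches the receptor, and proteases that cut the binding proteins set the ligands free. In preadipocytes the IGF1 receptor is known as a route by which IGF1, or insulin at high concentration, promotes adipogenesis.

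The binding proteins Igfbp3 and Igfbp5 showed the largest rises among the 10 genes when lysine was left out, so the bases before their transcription starts are shown. The sequences are the 250 bases upstream of the start in RefSeq (GRCm38.p6), read 5′ to 3′ on the strand of the gene. Igfbp3 lies at chr11:7206086-7213923 on the minus strand and its upstream window is chr11:7213924-7214173. Igfbp5 lies at chr1:72857932-72874884 on the minus strand and its window is chr1:72874866-72875115, whose last 19 bases fall within the gene as annotated in the deposited table. Capitals mark matches to TATNTA, which resembles the core promoter element of many genes and was picked after these windows had been read.
Igfbp3: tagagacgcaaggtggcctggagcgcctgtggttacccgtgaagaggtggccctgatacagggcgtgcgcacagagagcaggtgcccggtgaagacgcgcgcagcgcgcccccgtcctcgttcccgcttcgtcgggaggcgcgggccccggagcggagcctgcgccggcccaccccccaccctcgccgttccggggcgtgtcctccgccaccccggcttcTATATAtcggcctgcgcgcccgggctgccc
Igfbp5: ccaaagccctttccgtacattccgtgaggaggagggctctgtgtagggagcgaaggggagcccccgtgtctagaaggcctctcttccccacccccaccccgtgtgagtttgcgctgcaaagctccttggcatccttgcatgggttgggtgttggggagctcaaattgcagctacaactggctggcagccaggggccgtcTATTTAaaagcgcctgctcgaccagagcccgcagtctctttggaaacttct

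The match lay 30 to 25 bases before the start in Igfbp3 and 51 to 46 bases before it in Igfbp5. On either strand, 25.1% of 32817 RefSeq windows of this length hold it. Leaving out Igf2 and Igfbp2, 4 of 8 windows of the IGF genes held it, also those of Igf1 and Igfbp6. A match on the strand of the gene that began 25 to 40 bases before the start was held by 1.95% of all windows, and by those of Igfbp3 and Igfbp6. The Igfbp3 and Igfbp5 windows differ in base composition. The Igfbp3 window holds 73.2% G and C with 32 CpG, and the Igfbp5 window 58.8% with 10 CpG, beside a median of 52.4% G and C over all windows. Of 8 other motifs searched on both strands, none was found in either window. These were the TATA box as TATAAA (held by 12.4% of all windows), the GC box as GGGCGG (by 32.7%) and the CCAAT box by its name (33.8%). They were also the cyclic AMP element site as TGACG (17.7%), the AP-1 site as TGANTCA (6.75%), the glucocorticoid receptor site as AGAACA (16.1%), the FoxO site as GTAAACA (3.16%) and the core of the amino acid response element as TGATGNAA (3.45%). The capitals and the TATA box cannot match at the same position, and an absent match says only that these letters are not in these windows.

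Across the 10 genes, 8 were above the floor in all 9 libraries, and Igf2 and Igfbp2 were not. Differential expression was tested with edgeR, and a gene was called when its Benjamini-Hochberg adjusted p was under 0.05 and it changed at least 2-fold. In Differentiated vs Undifferentiated, 4 of the 10 genes were called, all lower (Igf1, Igf2r, Igfbp3, Igfbp6), where 21.8% of 24402 genes tested were called, 10.4% higher and 11.4% lower. In Lysfree vs Differentiated, 4 were called, of which Igfbp3, Igfbp5 and Igfbp6 were higher and Igf1 was lower, where 18.7% of 24130 genes were called, 8.14% higher and 10.5% lower. In Lysfree vs Undifferentiated, 3 were called, Igfbp5 higher and Igf1 and Igfbp7 lower, where 14.3% of 23994 genes were called, 5.52% higher and 8.76% lower. The median log2 fold change of the 8 genes above the floor was -1.15 in Differentiated vs Undifferentiated, 0.85 in Lysfree vs Differentiated and -0.24 in Lysfree vs Undifferentiated, beside 0.02, -0.06 and -0.02 over all genes tested. FPKM values of the groups did not overlap for 8, 7 and 6 of the genes in these comparisons, as for 50.9%, 46.6% and 43.5% of all genes tested. The comparisons share libraries pairwise, so their values are given side by side and not as independent results. The labels do not say that replicates came from separate cultures, so the p values rest on the spread between these libraries, which may be technical. In Differentiated vs Undifferentiated the prior degrees of freedom of the fit were infinite. Its p values thus use a spread pooled over genes and give each gene's own spread no weight. P values of fits without Lysfree 1 are also not comparable with those of the full fits. In Lysfree vs Differentiated, the edgeR adjusted p of Igfbp3 was 1.7e-14 with that library and 2.6e-211 without it. In Differentiated vs Undifferentiated the size of the p values depends on the genes kept. With low-count genes filtered out, the edgeR adjusted p of Igf2r was 1.11e-09 in place of 2.0e-145. For groups of 3, the smallest p that exact permutation of the labels allows for 1 gene is 0.1.

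**Figure D1:**
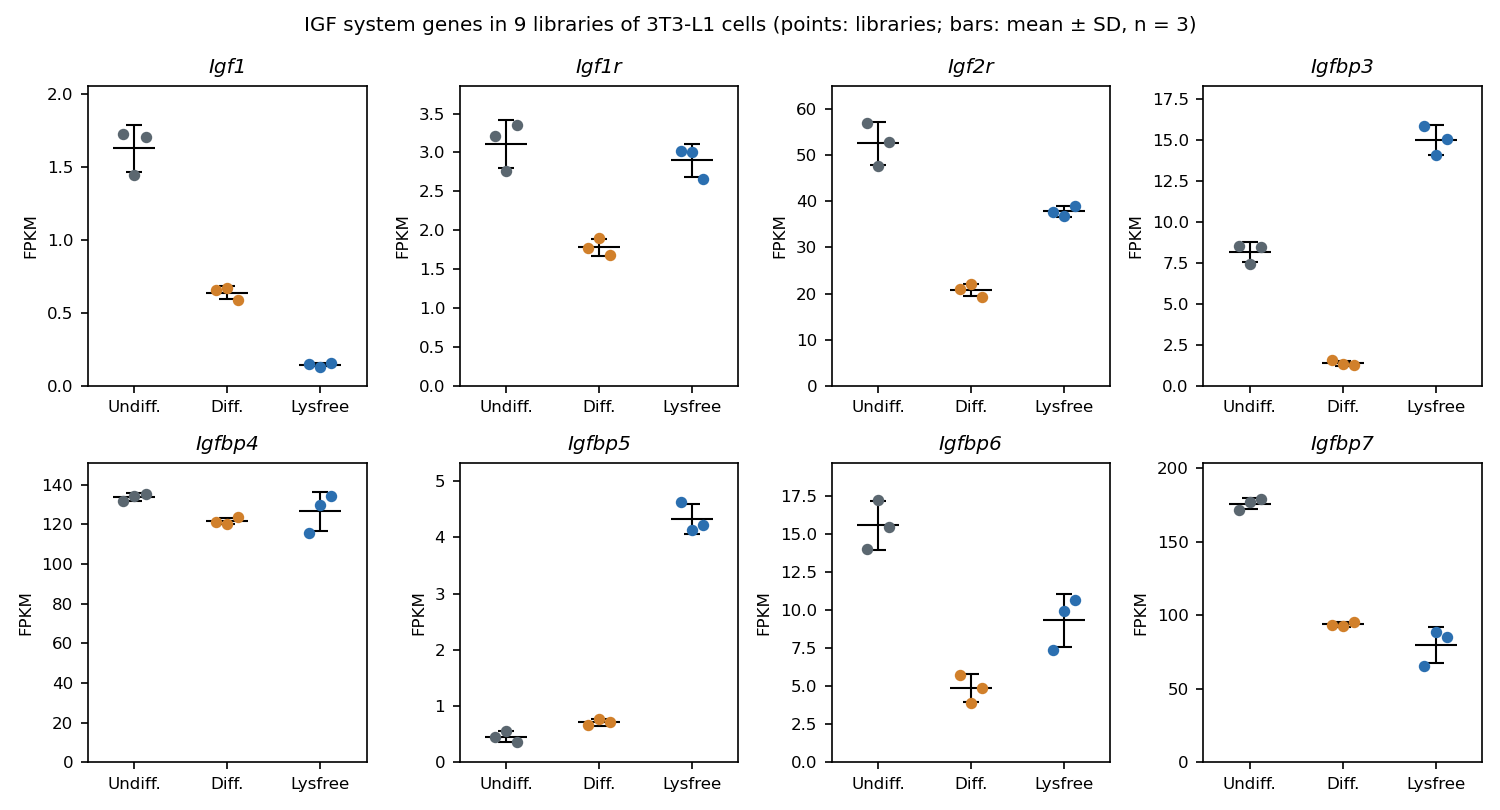
FPKM (linear axis from 0) of the 8 IGF system genes above the detection floor, with 1 point for each of the 3 libraries of the Undifferentiated (Undiff.), Differentiated (Diff.) and Lysfree groups, and bars for the mean ± SD. Igf1 steps down from 1.63 to 0.640 and 0.146 FPKM on average, Igfbp5 is high in the Lysfree libraries alone, and Igfbp3 is lowest in the Differentiated libraries.

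Igf1, the ligand that growth hormone raises in liver and that many tissues also make locally, was highest in Undifferentiated and lowest in Lysfree cells. Its level was 1.73, 1.45 and 1.71 FPKM in the Undifferentiated libraries (1.63 ± 0.158, SD, n = 3), from 365, 314 and 271 counts. It was 0.659, 0.672 and 0.588 FPKM in the Differentiated libraries (0.640 ± 0.0456, SD, n = 3), from 101, 124 and 94 counts. It was 0.149, 0.132 and 0.156 FPKM in the Lysfree libraries (0.146 ± 0.0122, SD, n = 3), from 26, 25 and 30 counts. The 3 groups followed each other with no overlap. Igf1 fell in Differentiated vs Undifferentiated cells, with a log2 fold change of -1.37 ± 0.13 (SE; edgeR adjusted p = 1.4e-25), and was lower again in Lysfree vs Differentiated cells, by -2.06 ± 0.22 (adjusted p = 1.1e-07). Against Undifferentiated cells, Lysfree cells held 10.7-fold less Igf1 RNA (log2 fold change -3.43 ± 0.20, edgeR adjusted p = 1.8e-15), the fall at rank 103 among 12566 genes with a mean of at least 1 CPM. In these bulk samples, fewer cells that express a gene and less of its RNA per cell cannot be told apart. The gene lies at chr10:87858265-87937042 on the plus strand (mm10) and its antisense neighbour Igf1os had no count in any library.

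Igf2, the fetal ligand that is expressed from the paternal allele, was not detected above the floor in any group. It had 3 counts in Differentiated 2 and 0 in the other 8 libraries, so no fold change is given. Of its surroundings at chr7:142650766-142666816, the antisense gene Igf2os had 2, 6 and 2 counts in the Differentiated libraries and 0 in the others. H19, the non-coding RNA of the same imprinted domain, was low as well, with 24, 20 and 13 counts in Undifferentiated, 19, 11 and 14 in Differentiated and 1, 3 and 5 in Lysfree libraries. H19 fell in Lysfree vs Differentiated cells (log2 fold change -2.36, edgeR adjusted p = 0.0027). The insulin genes Ins1 and Ins2 were at 0 in all 9 libraries.

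Igf1r, the signalling receptor, was lowest in Differentiated cells. Its level was 3.22, 2.76 and 3.35 FPKM in Undifferentiated (3.11 ± 0.308, SD, n = 3), 1.77, 1.90 and 1.68 in Differentiated (1.78 ± 0.112) and 3.02, 3.01 and 2.66 in Lysfree libraries (2.90 ± 0.207). Every Differentiated library lay below every other library, and the ranges of Undifferentiated and Lysfree overlapped. The receptor RNA was lower in Differentiated than in Undifferentiated cells by a log2 fold change of -0.83 ± 0.08 (SE; edgeR adjusted p = 3.2e-25) and higher in Lysfree than in Differentiated cells by 0.76 ± 0.11 (adjusted p = 6.4e-06). Neither change reached 2-fold. Lysfree and Undifferentiated cells differed by -0.05 ± 0.11 (edgeR adjusted p = 0.74), with an interval of -0.28 to 0.17.

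Igf2r, the scavenging receptor for IGF2 and carrier of lysosomal enzymes, had the same order of groups at a higher level. It was at 57.0, 47.7 and 52.9 FPKM in Undifferentiated (52.5 ± 4.65, SD, n = 3), 21.1, 22.01 and 19.3 in Differentiated (20.8 ± 1.38) and 37.6, 36.8 and 39.0 in Lysfree libraries (37.8 ± 1.13). None of the 3 groups overlapped with another. Igf2r fell in Differentiated vs Undifferentiated cells (log2 fold change -1.36 ± 0.05, SE; edgeR adjusted p = 2.0e-145). In Lysfree cells it stood between the other groups, 1.90-fold above Differentiated (log2 fold change 0.93 ± 0.09, edgeR adjusted p = 1.4e-08) and below Undifferentiated cells by a log2 fold change of -0.43 ± 0.10 (adjusted p = 4.9e-04), both short of 2-fold. The ratio of Igf2r to Igf1r FPKM was 16.9 ± 0.998 in Undifferentiated, 11.7 ± 0.233 in Differentiated and 13.1 ± 1.36 in Lysfree cells (SD, n = 3). Igf2r (chr17:12682406-12769664, minus strand) overlaps the antisense RNA Airn, which silences the paternal Igf2r allele in cis in many tissues. Airn had 656 to 897 counts in Undifferentiated, 161 to 184 in Differentiated and 132 to 225 in Lysfree libraries, beside 2901 to 11297 counts for Igf2r. Airn fell in Differentiated vs Undifferentiated cells (log2 fold change -1.89, edgeR adjusted p = 3.0e-81) and was -0.04 in Lysfree vs Differentiated cells (adjusted p = 0.86), or 0.085 without Lysfree 1. The strand setting of the counting is not given in the sources used here, so reads of the overlap could belong to either gene.

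**Figure D2:**
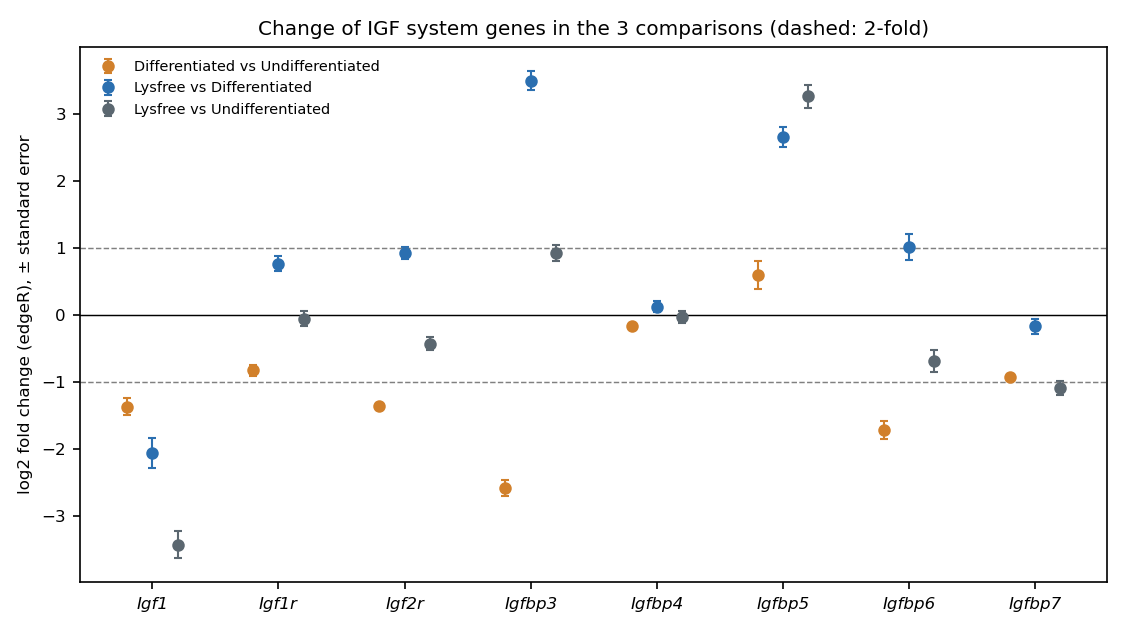
Log2 fold change ± standard error from edgeR (vertical axis) of the 8 IGF system genes above the floor in the 3 comparisons, with dashed lines at a 2-fold change. Igfbp3 is at -2.58 in Differentiated vs Undifferentiated and 3.50 in Lysfree vs Differentiated, Igf1 is below 0 in all 3 comparisons, and Igfbp4 stays within 0.17 of 0.

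Igfbp3, the main carrier of IGFs in blood and a growth inhibitor in many cultured cells, changed most of the 10 genes in Lysfree vs Differentiated cells. Its level was 8.53, 7.47 and 8.48 FPKM in Undifferentiated libraries (8.16 ± 0.597, SD, n = 3). It dropped to 1.57, 1.34 and 1.27 FPKM in Differentiated libraries (1.39 ± 0.159) and was 15.9, 14.1 and 15.1 FPKM in Lysfree libraries (15.0 ± 0.893). The groups did not overlap, and each Lysfree library was above all Undifferentiated libraries. Differentiated cells had 5.98-fold less Igfbp3 RNA than Undifferentiated cells (log2 fold change -2.58 ± 0.12, SE; edgeR adjusted p = 1.9e-94). Lysfree cells had 11.3-fold more than Differentiated cells (log2 fold change 3.50 ± 0.14, edgeR adjusted p = 1.7e-14), which placed it at rank 82 by rise among 12576 genes with a mean of at least 1 CPM. Against Undifferentiated cells the difference was 1.90-fold (log2 fold change 0.93 ± 0.12, edgeR adjusted p = 8.6e-08) and not called. Without Lysfree 1 the rise over Differentiated cells was 3.44 on the log2 scale.

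Igfbp5, a binding protein that attaches to extracellular matrix, was low in both other groups and higher in Lysfree cells. It was at 0.453, 0.562 and 0.364 FPKM in Undifferentiated libraries (0.460 ± 0.0991, SD, n = 3), from 58, 74 and 35 counts. It was at 0.656, 0.778 and 0.711 FPKM in Differentiated libraries (0.715 ± 0.0608), from 61, 87 and 69 counts, and at 4.63, 4.13 and 4.21 FPKM in Lysfree libraries (4.33 ± 0.270), from 489, 473 and 491 counts. The lowest Lysfree library was far above the highest of the other 6. Igfbp5 was 6.30-fold higher in Lysfree than in Differentiated cells (log2 fold change 2.65 ± 0.15, SE; edgeR adjusted p = 3.6e-12) and 9.59-fold higher than in Undifferentiated cells (3.26 ± 0.17, adjusted p = 1.6e-16), at rank 187 of 12576 and rank 31 of 12566 genes by rise. The difference between Differentiated and Undifferentiated cells was 0.60 ± 0.21 (edgeR adjusted p = 0.011), under 2-fold. Igfbp3, in contrast, was lower in Differentiated than in Undifferentiated cells. Its neighbour Igfbp2 (chr1:72824503-72852474, plus strand) had 1 count in Differentiated 2 and none in the other 8 libraries, and no fold change is given for it.

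Igfbp6, a binding protein with a preference for IGF2, was at 13.97, 17.2 and 15.4 FPKM in Undifferentiated libraries (15.5 ± 1.63, SD, n = 3). It was at 5.75, 3.91 and 4.90 FPKM in Differentiated libraries (4.85 ± 0.922) and at 7.37, 9.95 and 10.7 FPKM in Lysfree libraries (9.33 ± 1.73). The groups did not overlap, and Lysfree lay between the others. Igfbp6 fell in Differentiated vs Undifferentiated cells (log2 fold change -1.72 ± 0.13, SE; edgeR adjusted p = 2.6e-38). It was higher in Lysfree than in Differentiated cells by 1.01 ± 0.19 (edgeR adjusted p = 1.6e-04), which is at the edge of the 2-fold threshold: 9 of 16 alternative settings gave values of 0.82 to 0.99 and no call, among them leaving out Differentiated 2 (0.88), Lysfree 2 (0.96) or Lysfree 3 (0.90). Without Lysfree 1, the lowest of its group, the value was 1.14. Against Undifferentiated cells the Lysfree level was lower by a log2 fold change of -0.69 ± 0.16 (edgeR adjusted p = 7.3e-04), under 2-fold.

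Igfbp4 and Igfbp7 were the most abundant of the 10 genes on the FPKM scale. Igfbp4, which mostly restrains IGF action in culture, was at 131.8, 134.5 and 135.4 FPKM in Undifferentiated (133.9 ± 1.85, SD, n = 3), 121.1, 120.4 and 123.6 in Differentiated (121.7 ± 1.68) and 115.7, 129.7 and 134.6 in Lysfree libraries (126.7 ± 9.81). The Lysfree range held the whole Differentiated range and overlapped the Undifferentiated one. Igfbp4 was slightly lower in Differentiated than in Undifferentiated cells (log2 fold change -0.17 ± 0.05, SE; edgeR adjusted p = 0.0021). The difference was 0.12 ± 0.08 in Lysfree vs Differentiated (edgeR adjusted p = 0.28, interval -0.04 to 0.29) and -0.03 ± 0.09 in Lysfree vs Undifferentiated cells (adjusted p = 0.81, interval -0.22 to 0.15). Without Lysfree 1 the first of these was 0.17, still far under 2-fold. Its edgeR adjusted p was then 1.87e-05, which cannot be set against 0.28, as said above.

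Igfbp7, a relative of the family that binds IGFs weakly and is secreted into matrix, was at 171.4, 176.7 and 178.9 FPKM in Undifferentiated libraries (175.7 ± 3.82, SD, n = 3). It was at 93.5, 92.5 and 95.6 FPKM in Differentiated libraries (93.9 ± 1.55) and at 65.6, 88.5 and 85.0 FPKM in Lysfree libraries (79.7 ± 12.3). By the deposited FPKM, all Lysfree libraries were below all Differentiated ones, with Lysfree 1 lowest. The deposited FPKM carry a scaling constant per library, 0.932 to 0.953 in Lysfree and 1.03 to 1.04 in Differentiated libraries. The separation of these groups depends on that constant. The log2 fold change was -0.93 ± 0.06 (SE; edgeR adjusted p = 1.2e-60) in Differentiated vs Undifferentiated and -1.09 ± 0.11 (adjusted p = 4.7e-10) in Lysfree vs Undifferentiated cells, of which the latter was called. That call rested on Lysfree 1, since the value without it was -0.995. Lysfree and Differentiated cells differed by -0.17 ± 0.11 (edgeR adjusted p = 0.25, interval -0.38 to 0.04), and by -0.07 without Lysfree 1. Igfbp7 (chr5:77349240-77408041, minus strand) overlaps Polr2b on the opposite strand, which had 1654 to 2409 counts per library.

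Per length, the order of levels differed between the groups. In Undifferentiated cells it ran Igfbp7, Igfbp4, Igf2r, Igfbp6, Igfbp3, Igf1r, Igf1, Igfbp5, and neighbours in this order had ranges that did not overlap. In Differentiated cells Igfbp4 was above Igfbp7 and Igf1r above Igfbp3, and Igfbp5 and Igf1, at the bottom, had overlapping ranges. In Lysfree cells Igfbp3 had moved above Igfbp6, and Igfbp5 above Igf1r. FPKM divides by the length of all exons of a gene, which for Igf1 was 9904 bases beside 7052 for its longest coding transcript, and for Igf1r 16791 beside 11409, so levels between genes depend on that length while comparisons of 1 gene between groups do not.

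The 6 binding protein genes summed to 326, 336 and 339 FPKM in Undifferentiated libraries (333.7 ± 6.60, SD, n = 3), 223, 219 and 226 in Differentiated (222.5 ± 3.54) and 209, 246 and 250 in Lysfree libraries (235.1 ± 22.5). The sum was highest in Undifferentiated cells. The ranges of the other groups overlapped through Lysfree 1 alone, since 246 and 250 in Lysfree 2 and 3 lay above all Differentiated libraries. Its makeup differed. Igfbp7 made up 52.6% ± 0.178 of the sum in Undifferentiated, 42.2% ± 0.152 in Differentiated and 33.8% ± 2.29 in Lysfree cells (SD, n = 3). Igfbp3 made up 2.45% ± 0.204, 0.625% ± 0.0735 and 6.45% ± 1.00 in the same order, and Igfbp5 0.138% ± 0.0297, 0.322% ± 0.0308 and 1.86% ± 0.308. Igfbp4 held 40.1%, 54.7% and 54.0%. Against the single detected ligand, the summed binding protein FPKM was 207 ± 23.2 times that of Igf1 in Undifferentiated, 349 ± 31.2 times in Differentiated and 1620 ± 232 times in Lysfree cells, a description of RNA levels without a test.

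**Figure D3:**
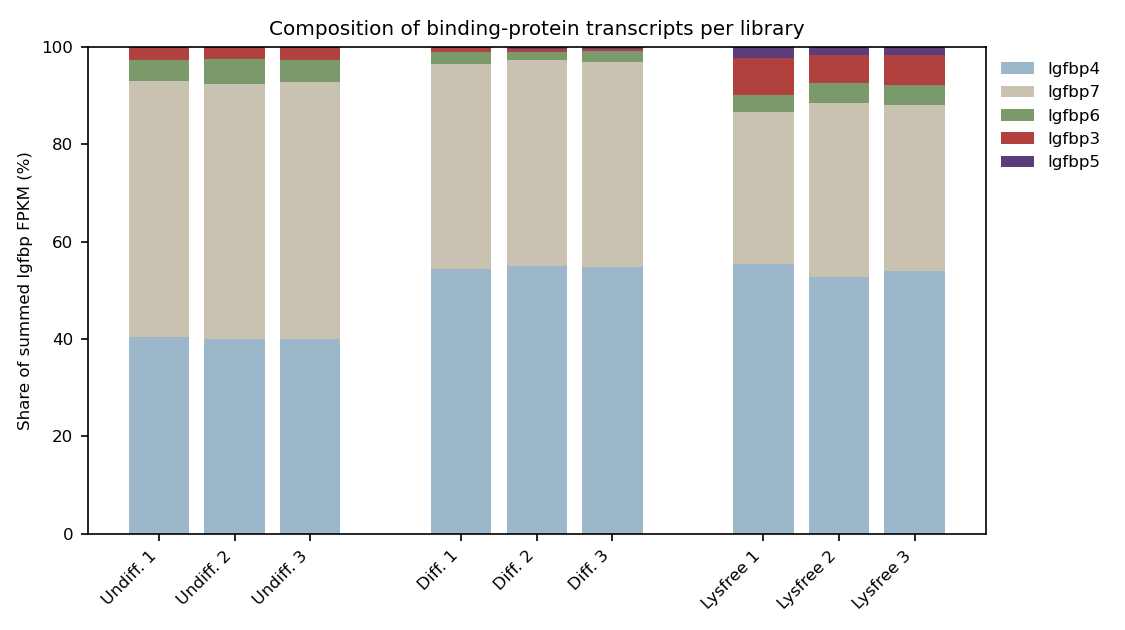
Share (%) of each gene in the summed FPKM of the IGF binding protein genes, stacked to 100% for each of the 9 libraries (Igfbp2, at 0.0133% at most, is not drawn). Igfbp4 and Igfbp7 fill most of each bar, and the shares of Igfbp3 and Igfbp5 are widest in the 3 Lysfree libraries, with means of 6.45% and 1.86%.

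Among 11 genes for proteases that cut IGF binding proteins and for their inhibitors, 9 were above the floor. In Differentiated vs Undifferentiated cells 3 were called higher and 3 lower, in Lysfree vs Differentiated 5 higher and 2 lower, and in Lysfree vs Undifferentiated 3 higher and 3 lower, with median log2 fold changes of -0.36, 1.15 and 0.09. Over all genes tested, 21.8%, 18.7% and 14.3% were called in these comparisons. Pappa encodes pappalysin 1, a protease whose substrates include IGFBP4. Pappa RNA was at 5.75, 3.79 and 5.10 FPKM in Undifferentiated, 0.961, 1.01 and 0.932 in Differentiated and 10.97, 8.91 and 9.27 in Lysfree libraries. The groups of Pappa did not overlap. It fell in Differentiated vs Undifferentiated (log2 fold change -2.36 ± 0.09, SE; edgeR adjusted p = 3.4e-143), rose in Lysfree vs Differentiated (3.39 ± 0.12, adjusted p = 2.2e-15) and rose in Lysfree vs Undifferentiated cells (1.04 ± 0.12, adjusted p = 1.6e-08). The last of these calls rested on Lysfree 1, since the value without it was 0.92.

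Its paralog Pappa2, which cleaves IGFBP3 and IGFBP5, was lower throughout, at 0.132 ± 0.0244, 0.423 ± 0.0708 and 0.899 ± 0.0788 FPKM (SD, n = 3) in Undifferentiated, Differentiated and Lysfree cells. It rose in all 3 comparisons, by 1.15 ± 0.18 in Lysfree vs Differentiated cells (SE; edgeR adjusted p = 2.1e-05). Stc2 encodes stanniocalcin 2, an inhibitor of both pappalysins. It was at 1.06 ± 0.177, 0.852 ± 0.0552 and 3.04 ± 0.293 FPKM, and rose in Lysfree vs Differentiated (1.90 ± 0.16, edgeR adjusted p = 2.9e-09) and Lysfree vs Undifferentiated cells (1.56 ± 0.17, adjusted p = 4.0e-09). RNAs of both pappalysins and of Stc2 were therefore higher in Lysfree than in Differentiated cells, but other genes of the list went the other way. Stc1 was at 11.6 FPKM in Differentiated and 7.54 in Lysfree cells (log2 fold change -0.56 ± 0.12, edgeR adjusted p = 4.7e-04), under 2-fold. The protease gene Adam12 was called lower, at 24.8 and 2.69 FPKM (-3.14 ± 0.10, edgeR adjusted p = 3.1e-16).

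Of 11 genes for secreted proteins that carry an IGFBP-like domain, 10 were above the floor in the Lysfree comparisons. In Lysfree vs Differentiated cells 4 were called higher and 3 lower, in Lysfree vs Undifferentiated 2 and 2, and in Differentiated vs Undifferentiated 0 and 4, where 8.14% and 10.5%, 5.52% and 8.76%, and 10.4% and 11.4% of all genes tested were called higher and lower. The matricellular gene Wisp1 had 22.6 ± 2.19, 2.51 ± 0.237 and 30.3 ± 4.50 FPKM (SD, n = 3) in Undifferentiated, Differentiated and Lysfree cells, and its log2 fold change in Lysfree vs Differentiated cells was 3.66 ± 0.12 (SE; edgeR adjusted p = 1.5e-15). Nov, of the same CCN family, had 5, 4 and 3 counts in the Differentiated and 80, 88 and 87 in the Lysfree libraries. Kazald1 went down in each step, with 9.45 ± 0.959, 3.89 ± 0.422 and 1.20 ± 0.238 FPKM, and fell in Lysfree vs Undifferentiated cells by 2.92 on the log2 scale (edgeR adjusted p = 5.6e-14). The remaining IGF ligand carriers and relatives were scarce: Igfbp1 and Igfbpl1 were at 0 in all 9 libraries, and Igfals, the acid-labile subunit of the circulating complex, had 21 counts at most.

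**Figure D4:**
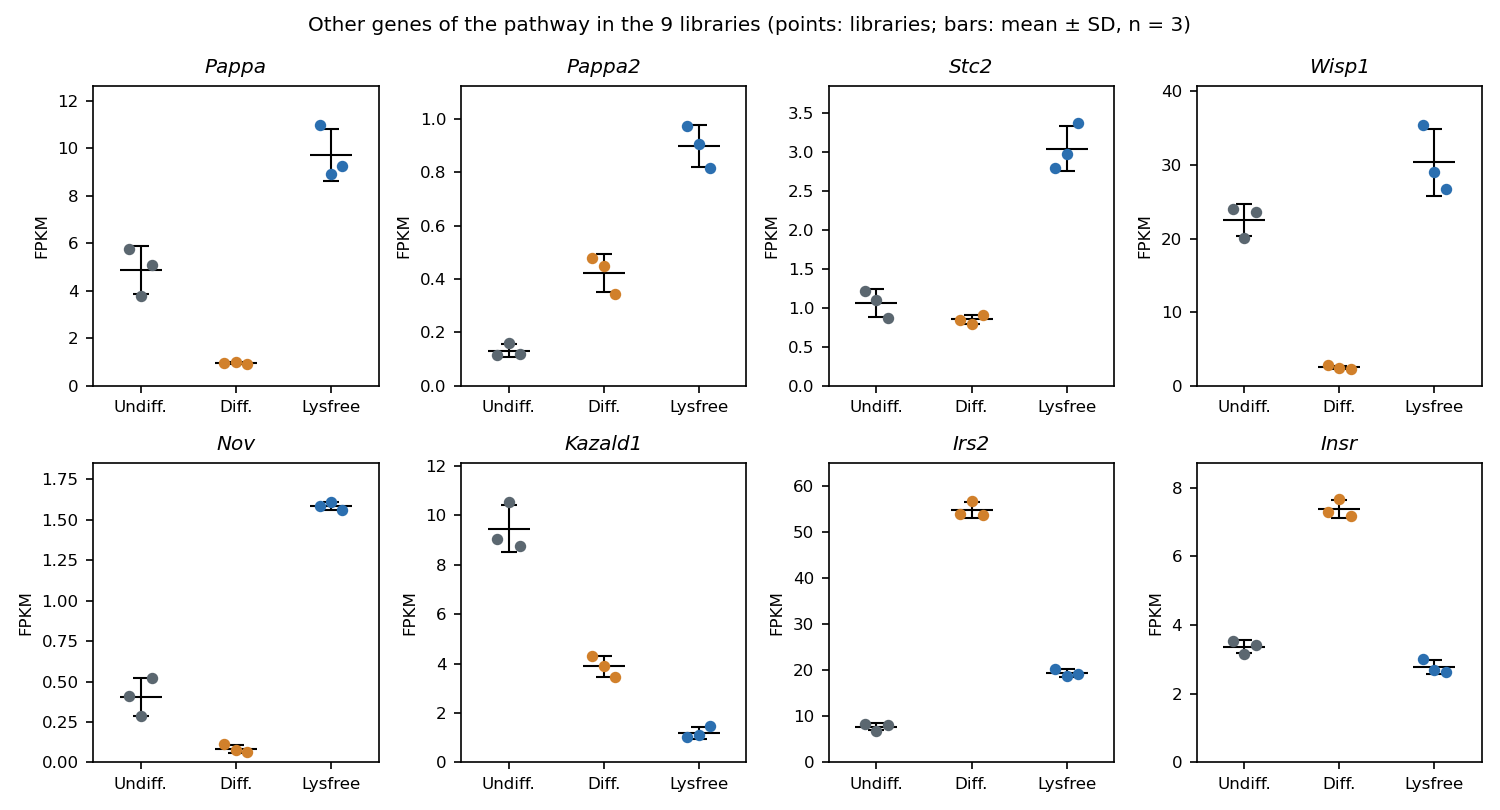
FPKM (linear axis from 0) of 8 other genes of the pathway in the 3 libraries of each group, with bars for the mean ± SD. Pappa, Wisp1 and Nov are lowest in the Differentiated (Diff.) libraries, Pappa2 and Stc2 are highest in the Lysfree libraries, Kazald1 is lowest there, and Irs2 and Insr are highest in the Differentiated libraries.

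Downstream of the receptors, 10 of 12 genes for the insulin receptor and for adaptors of both receptors were above the floor, and 3 were called higher and 2 lower in Differentiated vs Undifferentiated, 1 higher and 3 lower in Lysfree vs Differentiated, and 1 higher and 0 lower in Lysfree vs Undifferentiated cells. The share of all genes called was 21.8%, 18.7% and 14.3%. Insr had 3.37 ± 0.186, 7.38 ± 0.269 and 2.77 ± 0.205 FPKM (SD, n = 3) in Undifferentiated, Differentiated and Lysfree cells. It was highest in Differentiated cells, where Igf1r was lowest. Insr rose in Differentiated vs Undifferentiated cells by 1.11 ± 0.07 (SE; edgeR adjusted p = 3.1e-62) and fell in Lysfree vs Differentiated cells (-1.35 ± 0.10, adjusted p = 3.2e-10). Irs2, a docking protein of both receptors, had 7.72 ± 0.751, 54.7 ± 1.68 and 19.4 ± 0.826 FPKM and was called in all 3 comparisons, with log2 fold changes of 2.80, -1.43 and 1.38 (edgeR). Grb14, an adaptor that inhibits insulin receptor signalling, ran the other way with 3.49 ± 0.219, 0.820 ± 0.201 and 4.02 ± 0.117 FPKM.

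In the growth hormone axis that raises Igf1, all 8 genes were above the floor, with 1 called higher and 2 lower in Differentiated vs Undifferentiated, 2 and 2 in Lysfree vs Differentiated, and 1 and 2 in Lysfree vs Undifferentiated cells, beside 21.8%, 18.7% and 14.3% of all genes called in either direction. The receptor gene Ghr had 76.8 ± 2.08, 34.4 ± 0.669 and 28.9 ± 4.24 FPKM (SD, n = 3), and its log2 fold change in Lysfree vs Differentiated cells was -0.19 ± 0.10 (SE; edgeR adjusted p = 0.14), where that of Igf1 was -2.06. Ghr was at 33.8 FPKM in Lysfree 1 but at 26.6 and 26.2 in Lysfree 2 and 3, below all Differentiated libraries. Without Lysfree 1 the log2 fold change of Ghr was -0.33 ± 0.04, still under 2-fold. Its edgeR adjusted p was then 1.67e-14, which cannot be set against 0.14, as said above. Socs2, a feedback inhibitor of growth hormone signalling, rose in Lysfree vs Differentiated cells by 2.18 ± 0.12 (edgeR adjusted p = 3.6e-12), from 1.20 ± 0.0865 to 5.22 ± 0.335 FPKM. Also called in this comparison were Jak2, higher by 1.20, and Stat5a and Cish, with log2 fold changes of -1.13 and -1.08. The called genes of this list thus went both ways. Around the mannose 6-phosphate receptor role of Igf2r, 3 of 7 genes (Gnptg, Nagpa and Gga2) were called lower in Differentiated vs Undifferentiated and the same 3 higher in Lysfree vs Differentiated cells, where 11.4% of all genes were called lower and 8.14% higher. M6pr, the smaller receptor of this kind, had a log2 fold change of 0.08 ± 0.08 in Lysfree vs Differentiated cells (edgeR adjusted p = 0.5). Of the Igf2 mRNA-binding genes Igf2bp1, Igf2bp2 and Igf2bp3, 0 were called in any comparison. At an adjusted p under 0.05 alone, all 3 passed in Differentiated vs Undifferentiated cells, with log2 fold changes of 0.43, -0.81 and -0.73. So did 11260 of the 24402 genes tested. Igf2bp1 (-0.55) and Igf2bp2 (0.36) passed in Lysfree vs Differentiated cells, as did 9280 of 24130 genes. Igf2bp2 (-0.45) and Igf2bp3 (-0.77) passed in Lysfree vs Undifferentiated cells, as did 8428 of 23994.

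The genes whose profile over the 9 libraries lay nearest to each IGF gene were sought among 11423 protein-coding genes with a mean of at least 1 CPM. The measure was the root mean square difference of log2(CPM + 1) centred on each gene's mean. The added 1 damps changes at low levels, so near genes need not share a fold change. The nearest to Igfbp3 was the protease gene Pappa at 0.135, followed by Pcdh19 at 0.138 and Nrg1 at 0.174. Igfbp3 itself varied by 1.36 around its mean. The nearest to Igfbp5 were Prr32 at 0.123, the connexin gene Gja1 at 0.225 and the cytokine gene Il6 at 0.241. The nearest to Igf1 were Olfml2b at 0.108, Pyroxd2 at 0.193 and Slc22a17 at 0.204. For the receptors, Arhgap1 lay nearest to Igf1r at 0.0724 and Pkd1 nearest to Igf2r at 0.0658. For the other binding proteins the nearest were Ppp6r1 for Igfbp4 at 0.0437, Rilpl1 for Igfbp6 at 0.113 and Src for Igfbp7 at 0.0691. These distances describe 9 libraries in 3 groups, in which any genes that differ between the groups in like manner come out near each other.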

How the data were processed

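RNA of 9 3T3-L1 libraries was analysed. The authors mapped reads to mm10, and the submitters' processing notes name HISAT2 2.0.5 and featureCounts 1.5.0-p3; the strand setting is not given in the sources used here. They deposited raw counts per gene and FPKM. Per library, the deposited FPKM equalled the count over gene length and total, times a constant of 0.932 to 1.04. The constant differed by group, at 0.988 to 0.994 in Undifferentiated, 1.03 to 1.04 in Differentiated and 0.932 to 0.953 in Lysfree libraries. Narrow separations of groups by FPKM can depend on it. Total counts were 15880144 to 21806693, which sets the floor of 3 counts (counting error only).

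Counts were tested with edgeR 4.0.16 (quasi-likelihood, TMM, Benjamini-Hochberg) in R 4.3.3, for each pair of groups, leaving out genes without a count in all 6 of its libraries. Standard errors are the log2 fold change over the root of F, and intervals are 1.96 standard errors. Genes named were all 10 of the IGF set, some genes of each list and up to 3 nearest profiles a gene. The genes named from the lists were mostly called ones but were not taken strictly by size of change. Some genes with larger changes are not named, and M6pr and the Igf2bp genes were not called. The genes, lists and tests were chosen with earlier results of these data known. Alternatives were DESeq2 1.42.0, other scalings and filters, limma 3.58.1 on log2(FPKM + 1) and log2(FPKM + 0.1), a replicate block, and leaving out each library, and, added after the data were seen, a robust prior and the listed genes without Lysfree 1. The values of 1 gene on the lists are not reported here. The scripts were tested on simulated data.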

Additional observations from a re-analysis of the deposited data

How the results depend on the processing

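Of 384 alternative values for 24 single-gene changes, 368 kept their direction and their side of the call, 12 lost the call, 1 gained it and 3 changed sign. The sign changes were of uncalled values near 0 in Lysfree vs Undifferentiated: Igf1r was 0.00162 without Undifferentiated replicate 3 and 0.002175 without Lysfree replicate 3, and Igfbp4 was 0.003035 without Lysfree replicate 1. Leaving out each library gave -0.1324 to 0.002175 for Igf1r and -0.08093 to 0.003035 for Igfbp4. Igf1 lost its call with limma on log2(FPKM + 1), at -0.68 in Differentiated vs Undifferentiated and -0.52 in Lysfree vs Differentiated, since a pseudocount of 1 exceeds its level in 2 groups. Igf2r reached 1.00 and a call in Lysfree vs Differentiated with library sizes alone. DEGs numbered 5329, 4507 and 3426 in Differentiated vs Undifferentiated, Lysfree vs Differentiated and Lysfree vs Undifferentiated; they were 3488, 2891 and 2244 with at least 10 counts in every library (fewer genes tested), 2726, 2198 and 1474 with limma on log2(FPKM + 1), and 11260, 9280 and 8428 with no fold change threshold. IGF genes called became 8, 6 and 6 (from 4, 4 and 3) with no fold change threshold, and 2 in Lysfree vs Differentiated with limma on log2(FPKM + 1). The summed binding protein level was 1034, 646.9 and 793.6 in Undifferentiated, Differentiated and Lysfree cells when the counts were scaled to TPM, another unit. With a replicate block DEGs were 4837, 4173 and 3179, and the IGF genes called stayed at 4, 4 and 3 in number. The labels do not say that the replicate numbers pair the libraries. Deviations of same-numbered libraries correlated at -0.0849 to 0.116, and those of other pairs at -0.157 to 0.106. With 3 libraries a group these values cannot decide whether same-numbered libraries shared a culture or day. Genes at few counts, such as Igf1 with 25 to 30 counts in Lysfree libraries, carry the widest errors.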
